A study of Mus musculus with 2 samples.

Results

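The Sox transcription factors of the embryonic mouse brain were described here in 10 genes, Sox2, Sox3, Sox4, Sox5, Sox6, Sox8, Sox9, Sox11, Sox12 and Sox21, taken by symbol from the 24411 genes counted in each library. All 10 were found. The libraries came from brain at embryonic day 16.5 and were made by bulk RNA-seq after laser capture microdissection (LCM), a way of cutting selected areas from a stained section under the microscope. One area was the subventricular zone (SVZ), in which progenitors divide close to the lateral ventricles, and the other was the cortex, where new neurons settle. The words SVZ and cortex stand below for these libraries. The data held 1 library per area, from fresh-frozen sections of embryos for which the sources used here give no genotype, strain, treatment or number of animals pooled. The study used both to benchmark its barcoding of the same areas by light.

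Sox proteins bind DNA through an HMG box, a domain that fits into the minor groove and bends the helix, and they are sorted into subgroups by the likeness of that box. SoxB1 factors (Sox2, Sox3) keep neural progenitors undifferentiated, and the SoxB2 factor Sox21 counteracts them. SoxC factors (Sox4, Sox11, Sox12) act in newborn neurons. SoxD factors (Sox5, Sox6) have no transactivation domain of their own and shape the timing and identity of neurons and glia, whereas SoxE factors (Sox8, Sox9) act in radial glia, the progenitors of the ventricular wall, and in glial cells.

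With 1 library per area, no difference given here has a replicate check, no test between the areas was possible and no p-value was computed. Levels are counts per 1000000 gene-assigned reads (CPM). The SVZ library held 51435667 gene-assigned reads and the cortex library 22050693. Brackets after a log2 ratio (SVZ CPM over cortex CPM) hold the exact 95% Clopper-Pearson interval of the counts. These intervals and the floors used for counts of 0 cover counting error only, as the reads carry no molecular identifiers to part PCR copies from independent molecules, and variation between embryos, sections and cuts is not in them. In pieces of tissue, fewer cells of a type and less RNA per cell cannot be told apart.

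The libraries were checked against markers of cell types. Apical progenitors, which include radial glia, belong to the ventricular wall, and how much of it was cut with the SVZ was not tested. All 5 apical progenitor markers (Vim, Hes1, Slc1a3, Prom1, Pax6) were at least 4-fold higher in SVZ. So were all 3 intermediate progenitor markers (Eomes, Neurog2, Btg2). All 5 neuronal markers (Map2, Tubb3, Rbfox3, Neurod6, Syt1) were higher in cortex, as were 45.1% of the 12738 genes compared below. Only Syt1 was at least 4-fold higher there, with a log2 ratio of -3.51. The others ran from -1.77 for Tubb3 to -0.32 for Rbfox3. The neuronal markers summed to 2513 CPM in SVZ and 5603 CPM in cortex, so neuronal RNA was present in both libraries. Other cells were present in both. The 4 microglial markers summed to 31.6 CPM in SVZ and 3.81 CPM in cortex, the 5 vessel markers to 64.4 and 55.6 CPM, the 4 oligodendrocyte precursor markers to 11.7 and 11.0 CPM, the 4 interneuron markers to 78.0 and 73.0 CPM, and the 4 meningeal markers to 3.66 and 5.71 CPM. The choroid plexus marker Ttr stood at 240 CPM in SVZ, with 16 reads in cortex. Of the remaining markers of that tissue, Clic6 had 88 reads in SVZ and 0 in cortex, and Kl had 0 reads in both. Of the erythroid markers, Hba-a1 and Hbb-bt were listed at 0 reads in both libraries and Alas2 had 761 and 165 reads. The part of these cells in the Sox levels below was not tested.

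Start-site windows of 4 Sox genes, taken from RefSeq on GRCm38.p6, are shown because these genes stand for the patterns met below: Sox2 and Sox21 were higher in SVZ, Sox11 was nearly level and Sox5 was higher in cortex. Each runs 5′ to 3′ from 250 bases before a RefSeq start to 50 bases after it. Capitals mark matches to the E-box CANNTG, a motif of basic helix-loop-helix factors, and to the Sox core ACAAT on either strand (ATTGT on the other).
Sox2 (chr3:34649745-34650044, plus strand): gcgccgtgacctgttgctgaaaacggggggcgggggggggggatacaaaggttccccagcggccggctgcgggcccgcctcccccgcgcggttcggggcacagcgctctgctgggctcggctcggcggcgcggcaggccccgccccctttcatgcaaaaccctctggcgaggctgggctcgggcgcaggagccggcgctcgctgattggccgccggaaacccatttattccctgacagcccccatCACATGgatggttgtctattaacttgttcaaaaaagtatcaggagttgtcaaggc
Sox21 (chr14:118236981-118237280, minus strand): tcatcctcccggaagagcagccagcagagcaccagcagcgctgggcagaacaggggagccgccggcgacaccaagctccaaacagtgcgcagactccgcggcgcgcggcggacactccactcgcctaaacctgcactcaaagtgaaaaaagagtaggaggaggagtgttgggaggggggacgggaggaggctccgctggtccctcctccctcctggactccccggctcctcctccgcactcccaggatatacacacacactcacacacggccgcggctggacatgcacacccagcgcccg
Sox11 (chr12:27342669-27342968, minus strand): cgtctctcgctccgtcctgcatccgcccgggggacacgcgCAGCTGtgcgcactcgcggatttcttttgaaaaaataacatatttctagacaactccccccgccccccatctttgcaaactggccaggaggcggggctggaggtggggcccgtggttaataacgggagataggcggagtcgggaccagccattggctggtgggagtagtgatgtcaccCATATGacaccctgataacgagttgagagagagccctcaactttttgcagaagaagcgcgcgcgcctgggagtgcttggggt
Sox5 (chr6:143947057-143947356, minus strand): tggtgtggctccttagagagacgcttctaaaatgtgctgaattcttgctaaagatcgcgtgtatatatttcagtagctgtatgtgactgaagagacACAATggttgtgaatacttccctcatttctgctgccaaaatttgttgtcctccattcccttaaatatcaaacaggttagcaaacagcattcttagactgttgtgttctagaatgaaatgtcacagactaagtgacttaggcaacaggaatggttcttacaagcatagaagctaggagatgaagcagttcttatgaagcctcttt

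The Sox2, Sox21 and Sox11 windows were rich in GC, at 66.3%, 65.7% and 58.7%, against a median of 52.7% over 32851 windows of the same length. They held 27, 22 and 21 CpG dinucleotides. The Sox2 and Sox11 windows lie wholly upstream of the genes as GENCODE M21 draws them, while the Sox21 start is the same in RefSeq and GENCODE. The Sox5 window had 39.7% GC and 3 CpG dinucleotides, and lies within the span of the gene as GENCODE M21 draws it, so that it belongs to 1 of several possible starts. It held the single Sox core of the 4, which occurred in 31.0% of all windows. An E-box, present in 72.3% of all windows, was matched once in Sox2, at 2 places in Sox11 and nowhere in Sox21 and Sox5. Such a match is a string of letters and says nothing of binding.

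Across the family, 6 genes had the higher CPM in SVZ (Sox2, Sox3, Sox6, Sox8, Sox9, Sox21), as did 54.9% of the 12738 genes that reach 1 CPM on average. The other 4 (Sox4, Sox5, Sox11, Sox12) had the higher CPM in cortex, as did 45.1% of those genes. A minimum of 10 CPM, as the mean of both libraries, was met by 8 genes, Sox3 and Sox8 being too low. Sox2 and Sox21 met it through the SVZ library alone. With that minimum, 4 genes were at least 4-fold higher in SVZ (Sox2, Sox6, Sox9, Sox21), where 6.75% of 9027 genes were, and Sox5 alone was at least 4-fold higher in cortex, where 4.70% of genes were. The ratios of the 10 genes spanned from -2.15 for Sox5 to 7.66 for Sox21, the latter against a floor of 3 reads. The quartiles of the 9027 genes were -0.46 and 0.61.

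**Figure D1:**
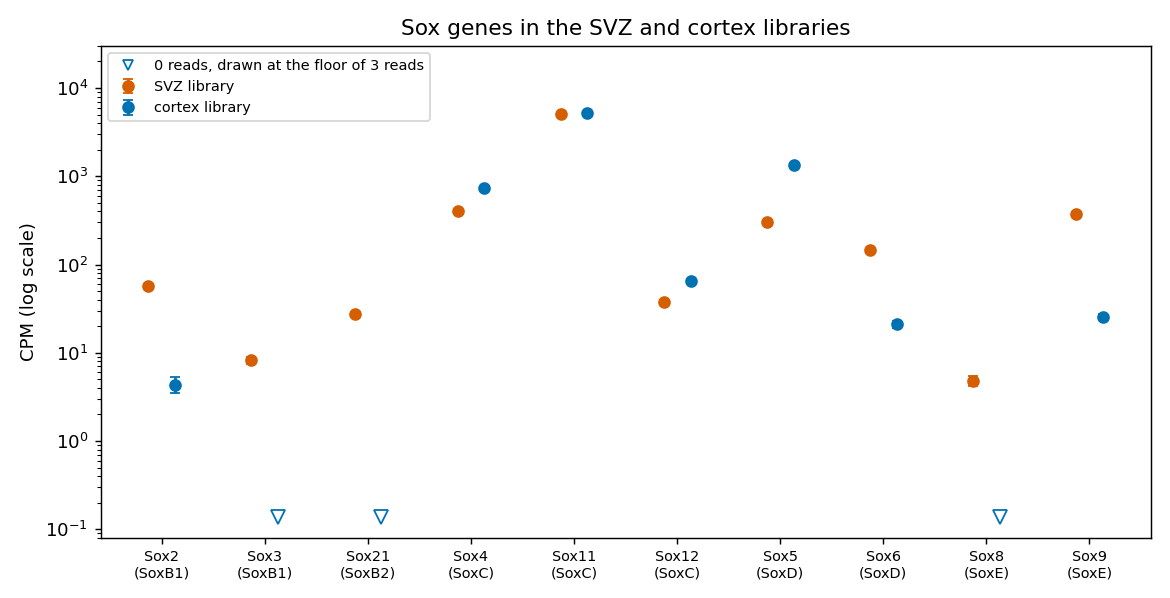
CPM on a log axis of the 10 Sox genes, ordered by subgroup, in SVZ (orange) and the cortex library (blue), with exact 95% Poisson intervals that are mostly smaller than the points. Open triangles mark the 3 genes with 0 cortex reads, drawn at the floor of 3 reads (0.136 CPM), and Sox11 is the highest gene in both libraries.

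Sox2 (GRCm38 chromosome 3, 34650405 to 34652461, plus strand), a pluripotency and progenitor factor with a single exon, had 2959 reads or 57.5 CPM in SVZ and 95 reads or 4.31 CPM in cortex. Its log2 ratio was 3.74 (3.44 to 4.05), a 13.4-fold difference. Sox2 stands inside an intron of Sox2ot, a long noncoding RNA on the same strand whose exons do not overlap it. Sox2ot had 1063 and 56 reads, 20.7 and 2.54 CPM, and a log2 ratio of 3.02 (2.64 to 3.44), so the gene and its host transcript were both higher in SVZ, with intervals that just missed each other.

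Sox3 (chromosome X, 60891366 to 60893430, minus strand), its close relative on the X chromosome, had 422 reads or 8.20 CPM in SVZ and 0 reads in cortex. Against the floor of 3 reads for a count of 0, which is 0.136 CPM in cortex, Sox3 was 60.3-fold higher in SVZ. This is a log2 value of 5.91 that the floor sets, and the counting interval began lower, at 5.61. Adding a pseudocount of 1 CPM to both levels gave 3.20. Sox1, the remaining SoxB1 gene, followed the same side with 2045 and 67 reads, 39.8 SVZ CPM and a log2 ratio of 3.71 (3.36 to 4.08), an interval that takes in the ratio of Sox2. Per length of transcript, Sox2 was 7.04 times the level of Sox3 in SVZ.

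Sox21 (chromosome 14, 118233232 to 118237030, minus strand), the SoxB2 repressor that promotes exit from the progenitor state, had 1413 reads or 27.5 CPM in SVZ and 0 reads in cortex. Against the floor it was 202-fold higher in SVZ, the farthest value in the family (7.66 on the log2 scale, against 4.83 with the pseudocount). The counting interval began lower, at 7.36. With the floor, its log2 ratio exceeded those of 99.6% of the 9027 genes. The antagonist thus stood on the same side as the SoxB1 factors. Of its exon sequence, 713 bases overlap a noncoding gene on the opposite strand, Gm4675, whose symbol was not matched to a counted gene. In the columns counted by strand Sox21 had 1553 SVZ reads and 2 cortex reads. It was the single member whose strand-resolved sum exceeded its unstranded count by more than 1 read, by 140 reads in SVZ. The source of those reads was not tested, and strand does not resolve it in libraries in which each strand held about the same number of reads, as in Sox11, where 49.7% of SVZ reads and 49.6% of cortex reads fell in the first strand column.

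The SoxE genes were also higher in SVZ. Sox9 (chromosome 11, 112782224 to 112787760, plus strand), which maintains neural stem cells and prepares the onset of gliogenesis, had 19086 reads or 371 CPM in SVZ and 560 reads or 25.4 CPM in cortex. The log2 ratio was 3.87 (3.75 to 3.99), a 14.6-fold difference whose interval overlaps that of Sox2. Per length, Sox9 stood above Sox2 by 3.21 times in SVZ and 2.93 times in cortex, so the ratio of these progenitor factors to each other was close in both libraries while their levels were not.

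Sox8 (chromosome 17, 25565892 to 25570686, minus strand), a SoxE gene of the glial lineage, was the lowest of the 10 in SVZ, with 248 reads or 4.82 CPM. It had 0 reads in cortex, and was 35.4-fold higher in SVZ against the floor (5.15 on the log2 scale, against 2.54 with the pseudocount). The counting interval began at 4.84. Sox10, the SoxE gene that marks committed oligodendrocyte cells, had 23 SVZ reads and 21 cortex reads. These came to 0.447 CPM in SVZ and 0.952 CPM in cortex, a higher level in cortex. The mean was under the level at which a ratio is given here. The SoxE signal was thus nearly all Sox9, which was 58.0 times the level of Sox8 per length in SVZ.

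**Figure D2:**
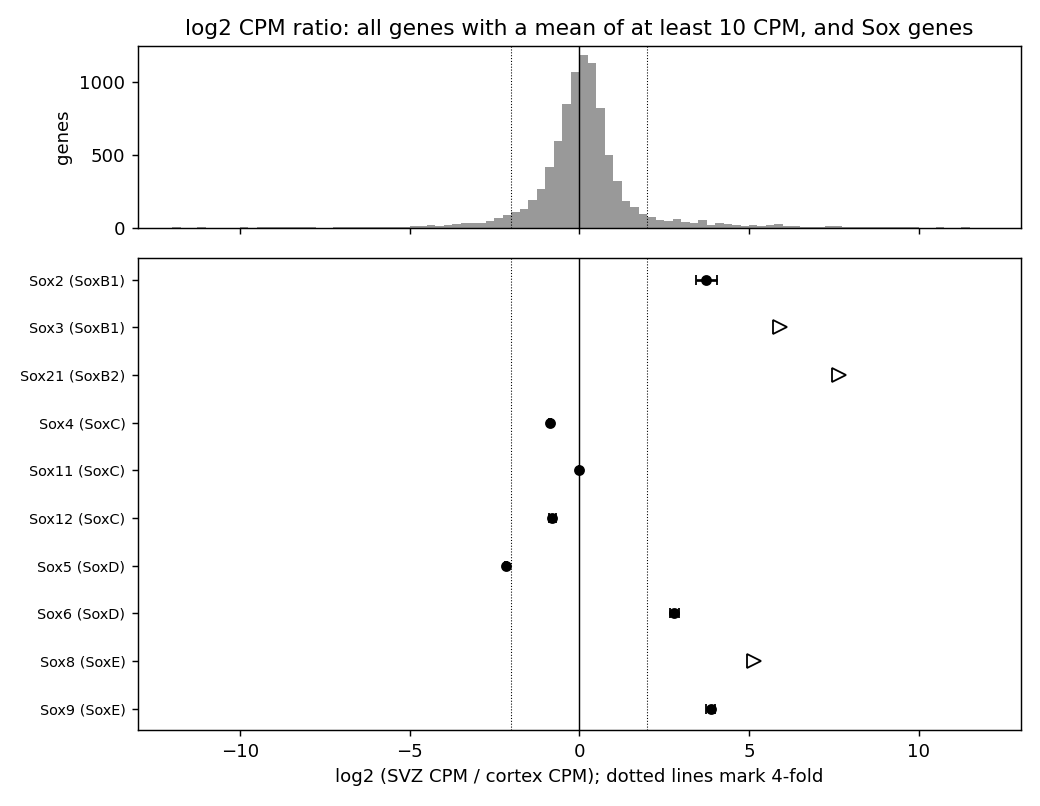
Upper panel, number of genes by log2 CPM ratio (SVZ over cortex) for the 9027 genes that reach 10 CPM on average. Lower panel, the same ratio for each Sox gene with its exact 95% counting interval. Open triangles mark ratios set by the floor, drawn without an interval. Sox2, Sox3, Sox21, Sox6, Sox8 and Sox9 lie beyond the dotted 4-fold line on the SVZ side, Sox5 beyond it on the cortex side, and the 3 SoxC genes between the lines.

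The SoxC genes lay nearer to equal levels. Sox11 (chromosome 12, 27334264 to 27342574, minus strand), a factor of newborn neurons, had 263336 reads or 5120 CPM in SVZ and 113682 reads or 5155 CPM in cortex. It was the fourth most counted gene of the SVZ library and the sixth of the cortex library. Its log2 ratio of -0.01 had a lower interval end of -0.02 and an upper end at 0.00, so that at this depth no difference beyond counting error was detectable. This rests on the scaling, since TMM, upper-quartile and DESeq2 scaling gave -0.10, -0.11 and -0.10, a slightly higher level in cortex. Of the 9027 genes, 44.2% had a lower ratio.

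Sox4 (chromosome 13, 28948919 to 28953713, minus strand), which acts beside Sox11 in immature neurons, had 20793 reads or 404 CPM in SVZ and 16154 reads or 733 CPM in cortex. The log2 ratio was -0.86 (-0.89 to -0.83), a 1.81-fold higher level in cortex. Of the Sox4 exon sequence, 2616 bases overlap a noncoding gene on the opposite strand, Gm26735, whose symbol was not matched to a counted gene. The part of that gene in the Sox4 reads was not tested. Sox12 (chromosome 2, 152393611 to 152398063, minus strand), the weakest activator of the trio, had 1914 reads or 37.2 CPM and 1425 reads or 64.6 CPM. Its log2 ratio of -0.80 (-0.90 to -0.70) overlaps that of Sox4. The ratios of Sox4 and Sox12 could not be told apart at this depth, and that of Sox11 lay outside both intervals.

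Sox4 exceeded Sox12 per length by 10.1 times in SVZ and 10.5 times in cortex, while Sox11 exceeded Sox4 by 7.31 times in SVZ and 4.06 times in cortex. Sox11 thus made up 70.8% of the summed per-length level of the 10 genes in SVZ and 69.7% in cortex. Sox4 made up 9.69% and 17.2%.

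The SoxD genes among the 10 were split. Sox5 (chromosome 6, 143828425 to 144781977, minus strand), which controls the order in which deep-layer neurons are born and send out their axons, had 15516 reads or 302 CPM in SVZ and 29485 reads or 1337 CPM in cortex. The log2 ratio was -2.15 (-2.18 to -2.12), 4.43-fold higher in cortex, where Sox5 was the 53rd most counted gene. It is the one gene of the 10 past 4-fold on that side. Over 1330 bases its exons overlap those of Sox5os1, a gene on the opposite strand that was not matched to a counted gene either.

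Sox6 (chromosome 7, 115470872 to 116038796, minus strand), known in this tissue from cortical progenitors and from interneurons that migrate in from the ventral forebrain, had 7544 reads or 147 CPM in SVZ and 464 reads or 21.04 CPM in cortex. Its log2 ratio was 2.80 (2.67 to 2.94), 6.97-fold higher in SVZ. Per length, Sox5 stood at 2.12 times the level of Sox6 in SVZ and at 65.6 times in cortex. Among interneuron markers, whose part in the Sox6 levels was not tested, Gad1 had a log2 ratio of 0.48, Gad2 0.38, Dlx2 0.04 and Lhx6 -0.29.

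Levels were also summed by subgroup, scaled per length as TPM (reads per kilobase of exon, brought to a sum of 1000000 in each library) with exon lengths from GENCODE M21. Only the 10 members enter, so Sox1 (28.5 TPM in SVZ and 2.41 TPM in cortex), Sox10 and Sox13 are left out of their subgroups. The 10 genes summed to 3010 TPM in SVZ and 3417 TPM in cortex, a total closer than its make-up. SoxC held 81.5% of it in SVZ and 88.5% in cortex. SoxE held 10.5% and 0.690%, SoxB1 3.67% and 0.235%, and SoxB2 0.831% in SVZ with no read in cortex. SoxD held 3.55% and 10.6%. These shares depend on the lengths used. With the longest transcript of each gene, an alternative chosen after seeing the data, SoxD held 6.52% and 19.0%, and SoxC 78.9% and 80.1%. The second place after SoxC was thus taken by SoxE in SVZ and by SoxD in cortex, with either length.

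**Figure D3:**
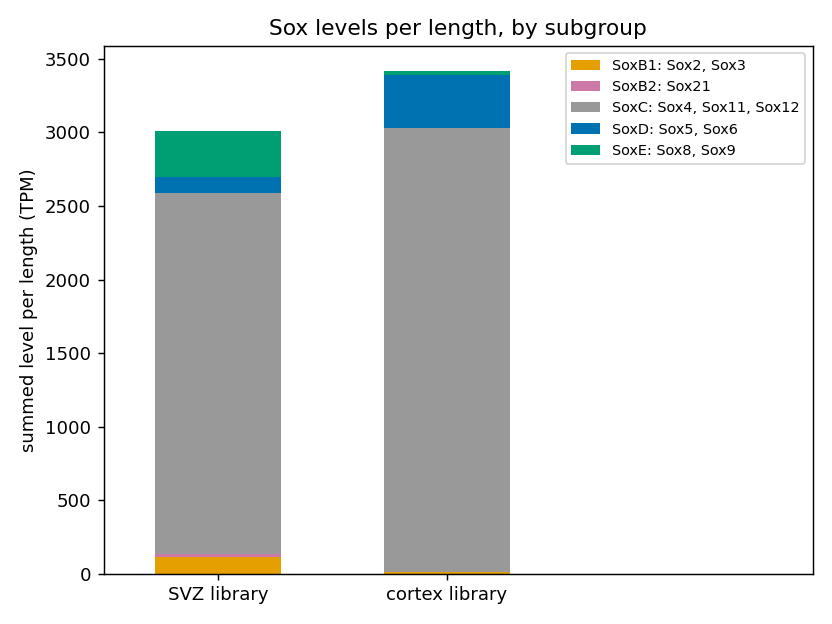
Stacked bars of the summed per-length level (TPM) of the 10 Sox genes in each library, divided by subgroup, from 0. SoxC fills 81.5% of the SVZ bar and 88.5% of the cortex bar, the green SoxE block is larger in SVZ, and the blue SoxD block is larger in cortex.

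Within SVZ the order by TPM was Sox11 (2131), Sox9 (311), Sox4 (292), Sox2 (96.8), Sox5 (72.6), Sox6 (34.2), Sox12 (28.9), Sox21 (25.0), Sox3 (13.7) and Sox8 (5.35). In the cortex library it was Sox11 (2381), Sox4 (586), Sox5 (357), Sox12 (55.7), Sox9 (23.6), Sox2 (8.04) and Sox6 (5.45), with the remaining 3 at 0. The places of Sox5 and Sox6 depend on the length given to them, because their exons from 14 and 16 annotated transcripts add up to 14376 and 14832 bases while the longest single transcripts have 7243 and 8668. With the longest transcript, Sox5 passed Sox4 in cortex (526 against 435 TPM) and Sox2 in SVZ (106 against 71.1 TPM), and Sox6 passed Sox2 in cortex (6.91 against 5.96 TPM).

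Genes tied to Sox function were then read from lists, with a mean of at least 1 CPM required. The lists were written by hand without a literature source and with earlier results of these data known. Each count below thus depends on which genes were put in. Tubb3, Map2, Pax6 and Lhx6 also stand among the cell type markers above, so for these genes the lists repeat that check. Some of the remaining list genes mark the same cell types too, as Fabp7 does for radial glia, and are no separate check. At that level 10.2% of the 12738 genes were at least 4-fold higher in SVZ and 7.01% in cortex, and the median log2 ratio was 0.11.

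Among partners and cofactors, 10 of 11 were higher in SVZ and 3 of them (Pax6, Chd7, Tcf7l2) at least 4-fold, with a median log2 ratio of 1.57. The POU factors that bind DNA beside SoxB1 and SoxC proteins included Pou3f2, at 1027 SVZ CPM with a log2 ratio of 1.57 (1.54 to 1.61), Pou3f3 at 1.34 (1.26 to 1.42), Pou3f4 at 1.91 and Pou3f1 at 0.26. Chd7, a chromatin remodeller that works with Sox2, had 3110 and 90 reads, with a log2 ratio of 3.89 (3.59 to 4.21). Pax6, a partner of Sox2, had 9245 and 15 reads, with a log2 ratio of 8.05, which was 6.18 in the sum of the strand columns, where it had 9649 and 57 reads. The corepressors of SoxD proteins parted, Ctbp2 at 1.14 and Ctbp1 at -0.68, the latter being the 1 gene of the list higher in cortex.

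All 6 genes linked to SoxB1 factors in neural progenitors were higher in SVZ, 5 of them at least 4-fold, with a median log2 ratio of 5.16. Hes5, a Notch effector, had 5355 and 35 reads, with a log2 ratio of 6.04 (5.56 to 6.56). Fabp7, a fatty acid binding protein of radial glia, had 255784 and 861 reads, with a log2 ratio of 6.99 (6.90 to 7.09). Notch1 stood at 4.28, the intermediate filament gene Nes at 2.64 and Lhx2 at 1.82. Gli2, a Hedgehog effector, had 1135 SVZ reads and 0 cortex reads, 162-fold higher in SVZ against the floor. Its log2 counting interval began at 7.04.

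Of the 6 genes linked to SoxC factors, 5 met the minimum, of which 4 were higher in cortex and none of these by 4-fold, with a median of -0.86. The neuronal tubulin Tubb3 had a log2 ratio of -1.77 (-1.80 to -1.75), Map2 -1.31 (-1.34 to -1.28), the migration gene Dcx -0.86 (-0.88 to -0.84) and Stmn1 -0.52 (-0.53 to -0.51). The interval of Dcx overlaps that of Sox4. Tead2, a Hippo pathway factor, went the other way with 3569 reads in SVZ against 57 in cortex, and its log2 ratio was 4.75 (4.37 to 5.15). Prox1, with 62 and 3 reads, was under the minimum.

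The 4 genes linked to Sox9 and Nfia were divided evenly, with a median of 0.22. Zcchc24 had a log2 ratio of 2.89 (2.50 to 3.30) and Mmd2 1.12 (1.04 to 1.21), whereas Apcdd1 had -1.50 (-1.68 to -1.33) and Nfia itself -0.69 (-0.72 to -0.66). Nfia, which is induced by Sox9 at the onset of gliogenesis and is also a neuronal gene, stood at 546 SVZ CPM, on the other side from Sox9. The 4 genes linked to SoxD were all higher in cortex, 3 of them at least 4-fold, with a median of -2.16. Fezf2 (log2 ratio -2.11), Bcl11b (-2.26) and Tbr1 (-2.21), which set deep-layer identity, lay on either side of Sox5 (-2.15), and the interneuron factor Lhx6 stood at -0.29.

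**Figure D4:**
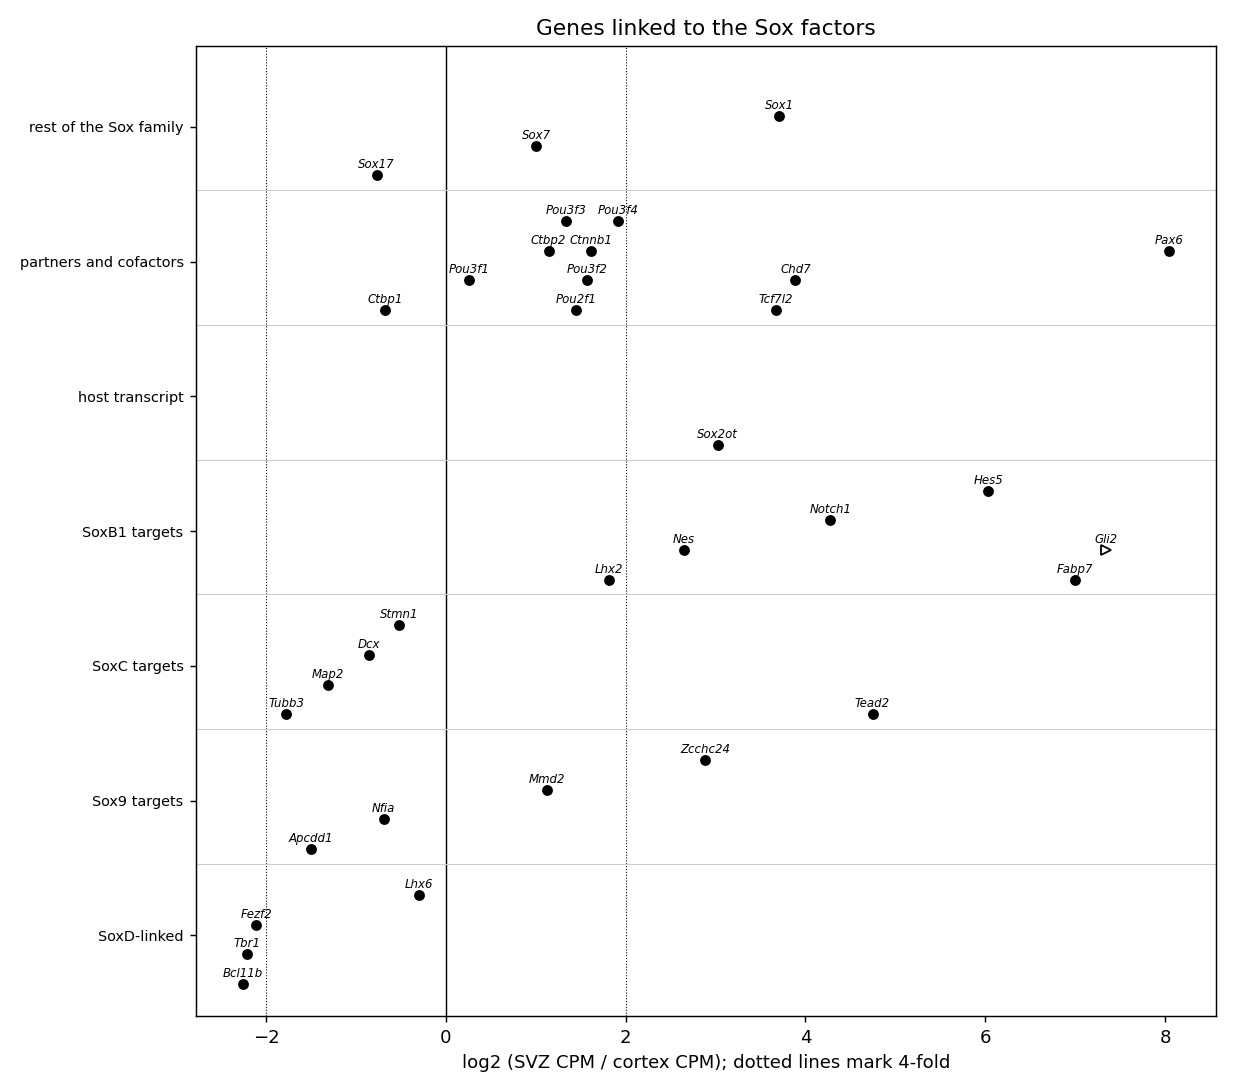
Log2 CPM ratio (SVZ over cortex) for list genes that reach 1 CPM on average, 1 row per list and small vertical offsets for legibility. An open triangle marks a ratio set by the floor, and dotted lines mark 4-fold. All 6 SoxB1-linked genes lie right of 0 and all 4 SoxD-linked genes left of 0, while the SoxC-linked and Sox9-linked rows hold genes on both sides.

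Of the 9 remaining Sox genes, 3 met the minimum of 1 CPM, Sox1 among them. Sox7 and Sox17, which act in the endothelium of vessels, had log2 ratios of 1.00 (0.44 to 1.61) and -0.77 (-1.32 to -0.21) on 145 and 31 reads and on 67 and 49 reads, and thus stood on opposite sides. The vessel markers were likewise divided, with Cldn5 at 0.87 and Pecam1 at 0.26 against Kdr at -0.45, Cdh5 at -0.55 and Flt1 at -1.26. Sox18, the third endothelial gene, had 2 and 7 reads, the SoxD gene Sox13 75 and 8, and Sox14 had 0 reads in both libraries. Sox30 had 11 and 9 reads, which came to 0.214 CPM in SVZ and 0.408 CPM in cortex.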

How the data were processed

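LCM RNA-seq was analysed for 1 SVZ and 1 cortex library. Per the study's methods, RNA was treated with DNase before library preparation with a kit for low input. The authors removed adapters with cutadapt 4.1, mapped read 1 to mm10 (Illumina iGenomes) with STAR 2.7.9a and deposited its counts, whole reads per gene that were not normalized, in an unstranded column and a column for each strand. STAR sets aside reads that map to several places or fall in more than 1 gene. The authors' merged table holds their CPM, fold change and log10 change and was not used.

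CPM was taken from the unstranded counts and the sum of reads over genes, so that 1 read came to 0.0194 CPM in SVZ and 0.0454 CPM in cortex. Counts of 0 were replaced by 3 reads, so that the floor sets the ratio, and the counting interval can reach below it. Pairs of counts that both reached no more than 3 got no ratio. List genes needed a mean of 1 CPM and calls a mean of 10 CPM and 4-fold. The text names all members and may name list genes. The members, subgroups and lists were chosen with earlier results of these data known.

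Symbols were matched to GENCODE M21 (GRCm38) for positions and lengths, which 23376 of 24411 genes and all members had. RefSeq windows were found for 8 members, and Sox3 and Sox9 had none. Alternative scalings were DESeq2 1.42.0 size factors, upper-quartile and TMM factors (edgeR 4.0.16) and a total that leaves out the 10 genes with most reads. The strand columns, thinning of SVZ, a pseudocount of 1 CPM and other thresholds were also tried. Software was scipy 1.17.1, numpy 2.4.6 and matplotlib 3.10.9 on Python 3.11.15, and R 4.3.3. The calls and counting intervals were tried on simulated Poisson counts. These hold no PCR copies and no variation between embryos or sections, so the simulation cannot speak to those limits.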

Additional observations from a re-analysis of the deposited data

Results flagged for a closer look

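Sox15, a Sox gene outside the main subgroups described here, had 0 reads in cortex in the unstranded counts but 30 reads when both strand columns were added, above the 3 reads that a count of 0 allows. The strand columns were not part of the main measurement. In SVZ the values were 16 and 76 reads. Reads that fall in more than 1 gene are set aside in the unstranded column, and whether a gene on the other strand accounts for these was not tested.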

How the results depend on the processing

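No paired analysis was possible because there is a single library of each area, and no replicate could be left out. No member's log2 ratio changed sign in the 70 recomputed values, of which 55 stayed inside the counting interval. TMM factors shifted each log2 ratio by -0.09, and this moved the SoxC ratio of summed reads from -0.10 to -0.19 and the SoxD ratio from -1.60 to -1.69. Upper-quartile factors gave -0.20 and -1.70, DESeq2 size factors -0.19 and -1.69, and a total that leaves out the 10 genes with most reads -0.13 and -1.63. A pseudocount of 1 CPM took the SoxB2 ratio, which is Sox21 against the floor, from 7.66 to 4.83, Sox3 from 5.91 to 3.20 and Sox8 from 5.15 to 2.54. The median of the members in place of summed reads gave 4.83 for SoxB1, -0.80 for SoxC and 4.51 for SoxE, and turned SoxD to 0.33, since its genes stand on opposite sides and Sox5 holds most of its reads. With a mean of 100 CPM required, 1 member was at least 4-fold higher in SVZ, as fewer genes pass, and at a 10-fold threshold 0 were higher in cortex. These are counts by size with no test. Of the other Sox genes, 4 were higher in SVZ with no minimum and 1 with a mean of 10 CPM, and of the SoxC-linked genes 2 with no minimum.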

Other observations

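The nearest counted genes on either side of the 7 Sox genes past 4-fold were looked up after the values were seen, again with a mean of at least 1 CPM. Of these 14 neighbours, 1 was itself past 4-fold, Cacna1h beside Sox8, where 10.2% of all genes at that minimum were past it in SVZ and 7.01% in cortex, so this count is no result about the Sox genes. Counted genes that overlap a Sox gene were left out of the 14. Among these, Sox2ot had a log2 ratio of 3.02, and 2810468N07Rik, given last below, was also higher in SVZ. Upstream of Sox6, beyond its 5′ end, 1110004F10Rik starts 0.6 kb away on the opposite strand. It had 565 CPM in SVZ and 545 CPM in cortex, a log2 ratio of 0.05 beside the 2.80 of Sox6. Around Sox21, Gpr180 (70.0 kb away) had a log2 ratio of 0.66 and Abcc4 (246 kb away) 1.09. Beside Sox8, Lmf1 (8.4 kb away) had a log2 ratio of 0.59 and Cacna1h (132 kb away) -2.07, a higher level in cortex where Sox8 had no read. Around Sox5, Bcat1 (212 kb away) stood at -0.09 and Etnk1 (596 kb away) at -0.35. The noncoding gene 2810468N07Rik, which overlaps Sox8 on the opposite strand over 329 bases of exon, had 416 reads in SVZ and 8 in cortex.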
